A study of Homo sapiens with 2 samples.

Results

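Chromosomes 9 and 22 carry ABL1 and BCR, the genes joined in the Philadelphia chromosome. The peaks described here are every deposited ASH1 peak on these chromosomes, chosen by chromosome name alone: 450 of the 5556 peaks in all. Replicate 1 contributed 68 of its 910 peaks (56 on chromosome 9 and 12 on chromosome 22), and replicate 2 contributed 382 of its 4646 (236 and 146). The data are chromatin immunoprecipitations followed by sequencing (ChIP-seq) from K562, an established human chronic myelogenous leukaemia cell line, with no treatment named in the labels. Both samples were precipitated with a rabbit polyclonal antibody to the C-terminus of ASH1, and they form 1 group: replicate 1 used antibody batch 1 and replicate 2 used batch 3. Batch and replicate therefore cannot be told apart, there is no second condition, and nothing in the labels says whether the samples came from separate cultures. A peak list gives for each peak a start, an end and the authors' score, which rises with enrichment and with sequencing depth. How many reads lie behind each list is unknown.

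ASH1 (gene symbol ASH1L) is a trithorax-group protein whose SET domain methylates histone H3 at lysine 36, a group known for keeping developmental genes active. In chronic myelogenous leukaemia the centromeric part of the long arm of chromosome 22, up to BCR, is joined to the part of 9q that runs from ABL1 to the chromosome end, and the fusion gene encodes an always-active tyrosine kinase. K562 is known to carry extra copies of this fusion and to lack CDKN2A, a cell-cycle inhibitor gene in 9p21.3. Copy number was not measured in these files. The chromosomes were cut, by peak midpoint, into 9p (below 47.3 Mb of hg19), proximal 9q, 9q from ABL1 to the end (from 133.59 Mb, 7.62 Mb long), 22q from 16 Mb to the BCR breakpoint region at 23.63 Mb (7.63 Mb long) and 22q distal to it (27.7 Mb). Below 16 Mb of chromosome 22 there were 0 peaks in either list. The pieces of 9q and 22q that the fusion joins are called its fusion sides.

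Both fusion sides held more ASH1 peaks than their length in both lists. The end of 9q held 27 replicate 1 peaks, or 3.54 per Mb (95% Poisson interval 2.33 to 5.15), and 92 replicate 2 peaks, or 12.1 per Mb (9.73 to 14.8). These densities were 11.7 and 7.87 times the length share, and in each list they were the highest of the 43 segments into which chromosomes 1 to 22 and X were divided (exact binomial test, adjusted p = 1.1e-18 and 2.8e-48). The piece of 22q proximal to BCR held 7 and 51 peaks, 3.02 times its share in replicate 1 (1.22 to 6.20, exact test, adjusted p = 0.018) and 4.36 times in replicate 2 (3.25 to 5.72, adjusted p = 1.5e-16). It ranked 6th and 2nd of the 43. In replicate 1, 2 of the 5 segments were called higher and 0 lower, where 27.9% of all segments were called higher and 27.9% lower. In replicate 2, 3 of the 5 were called higher and 1 lower, where 41.9% of all segments were called higher and 34.9% lower. Calls were thus common across the genome. Neighbouring peaks are not independent, so these p-values describe the 2 lists and not the spread between experiments.

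**Figure D1:**
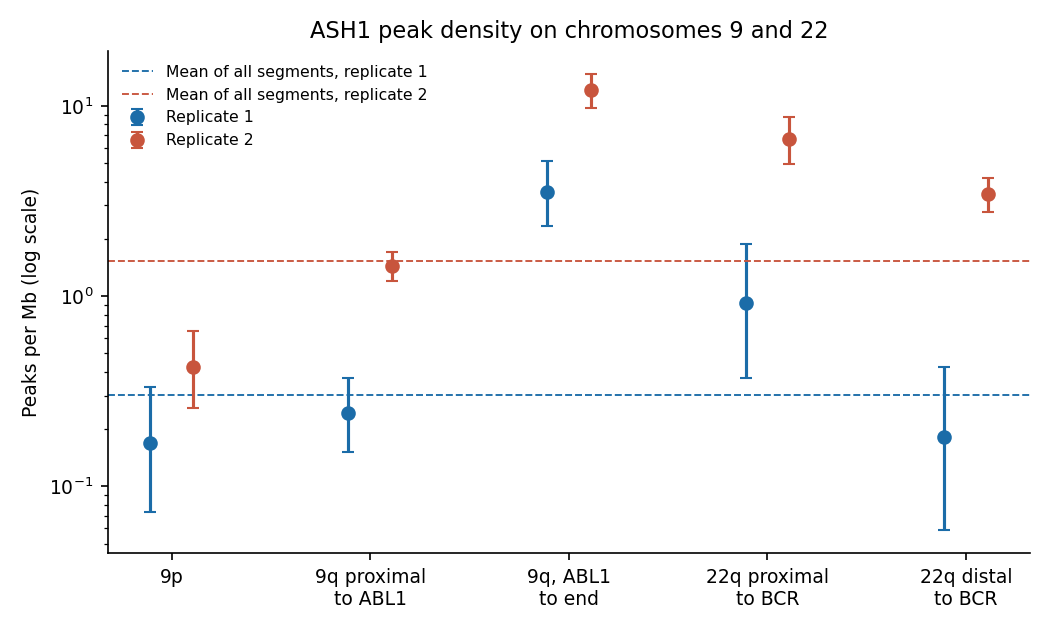
Peaks per Mb (log scale) in the 5 segments of chromosomes 9 and 22 for each replicate, with 95% Poisson intervals that cover counting error only; dashed lines mark the mean of all 43 segments in each list. The end of 9q is highest in both lists, and 9p is lowest, at 0.17 and 0.42 per Mb.

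The rest of the 2 chromosomes did not share this density. Proximal 9q held 21 and 124 peaks, 0.80 and 0.94 times its share (exact binomial test, adjusted p = 0.46 and 0.55). Within 9q, the end was 14.6 times as dense as the proximal part in replicate 1 (7.92 to 27.1) and 8.40 times in replicate 2 (6.34 to 11.1, exact conditional test, adjusted p = 4.3e-17 and 4.7e-42). The length of proximal 9q includes the centromere and the variable band 9q12, which held 0 peaks in both lists. With centromere, variable and stalk bands left out, the ratios were lower, at 11.4 and 6.59 (exact conditional test, adjusted p = 1.1e-14 and 2.1e-34). On 22q the proximal piece was 5.08 times as dense as the distal one in replicate 1 (1.39 to 20.3) and 1.95 times in replicate 2 (1.36 to 2.76; exact conditional test, adjusted p = 0.0074 and 0.00038). The replicate 1 ratio rests on 7 peaks against 5. Distal 22q was where the lists parted: it held 5 replicate 1 peaks (0.556% of that list, 0.60 times its share of length, not called) and 95 replicate 2 peaks (2.09%, 2.24 times, exact binomial test, adjusted p = 8.7e-12). The 2 shares differed (Fisher's exact test, adjusted p = 0.0053), as they did in 32.6% of all segments. With both lists limited to their 910 highest scores, the difference in share was no longer called (exact test, adjusted p = 0.42). The ratio of replicate 1 to replicate 2 was still 0.49, and with 5 replicate 1 peaks the test cannot show the shares to be alike. The replicate 2 density of distal 22q fell to 1.21 times its length share (exact test, adjusted p = 0.58).

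The end of 9q was dense also when set beside other chromosome ends. In the outermost 7.62 Mb of 41 chromosome arms, replicate 1 had between 0 and 27 peaks with a median of 5, and 9q was first. Replicate 2 had between 3 and 100 peaks with a median of 45, and 9q was second, after 16q with 100 and just ahead of 7q with 91. The counts of 9q and 7q in replicate 2 differed by 1 peak. The end of 22q held 2 and 58 peaks (27th and 15th) and that of 9p held 1 and 4 (34th and 40th). Gene content differs as well: in the order of RefSeq genes (GRCh38.p14, used for gene order only), 146 protein-coding genes run from ABL1 to the end of chromosome 9, and 105 run from the start of chromosome 22 to BCR. Per 100 protein-coding genes this gave 18.5 replicate 1 and 63.0 replicate 2 peaks from ABL1 on, against 4.59 and 22.8 before ABL1. It gave 6.67 and 48.6 up to BCR and 1.45 and 27.5 after it. Over chromosomes 1 to 22 and X the values were 4.50 and 22.7.

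**Figure D2:**
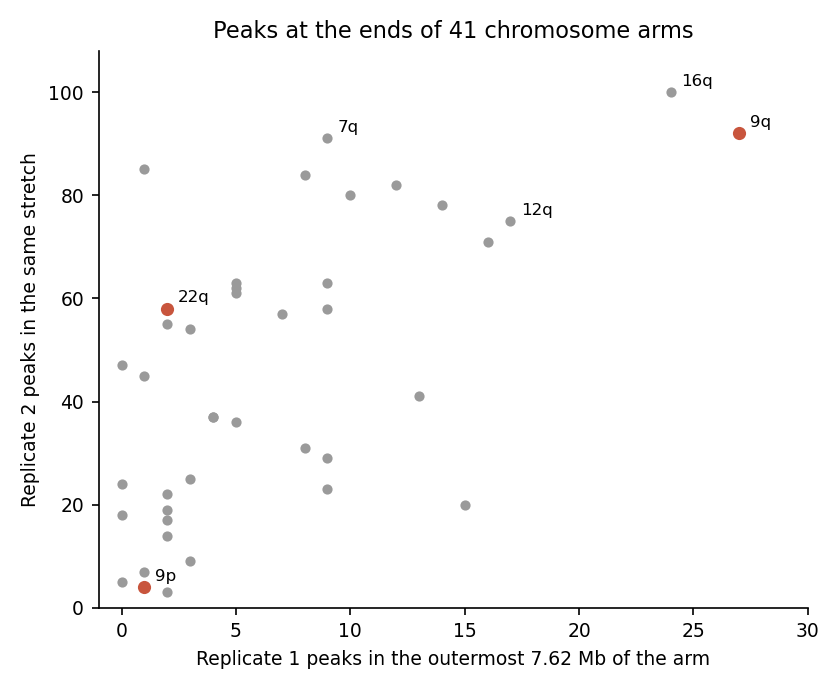
Number of replicate 1 peaks (x axis) and replicate 2 peaks (y axis) in the outermost 7.62 Mb of each of 41 chromosome arms; 9p, 9q and 22q are in red. The 9q point, at 27 and 92, lies in the upper right with 16q (24 and 100), whereas 9p, at 1 and 4, lies near the origin.

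Within the end of 9q the outer bands were the densest. Of the 59 cytogenetic bands of the 2 chromosomes, 4 were called higher in both lists, where 2.78% of 862 bands were: 9q34.3, 9q34.2, 9q22.31 and 22q11.21. In replicate 1 these 4 were the only bands called higher (background 3.94%), and in replicate 2, 12 were (10.8%). Band 9q34.3, which holds NOTCH1, a receptor gene of blood development, and EHMT1, a gene for a histone H3 lysine 9 methyltransferase, had 18 and 61 peaks, of which 15 replicate 1 peaks overlapped a replicate 2 peak. The next band inward, 9q34.2, had 6 and 21 peaks, 13.7 and 9.43 times its share (exact binomial test, adjusted p = 0.00038 and 1.5e-12). Band 9q34.13 had 3 and 8 peaks (5.40 and 2.84 times, adjusted p = 0.32 and 0.042, exact test). Band 9q34.12, where ABL1 lies, had 0 and 2. Peaks were named here by band and position, since no annotation of the files' build was used to tie peaks to genes.

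Peaks of both antibody batches coincided often at the end of 9q. A peak counted as shared when it overlapped a peak of the other list by at least 1 bp. At the end of 9q, 21 of 27 replicate 1 peaks were shared (77.8%, 95% Clopper-Pearson interval 57.7 to 91.4%), and 6 of 7 in proximal 22q (85.7%, 42.1 to 99.6%). In proximal 9q the count was 13 of 21, in distal 22q 4 of 5 and in 9p 3 of 8. Over both chromosomes 47 of 68 were shared (69.1%, 56.7 to 79.8%), beside 415 of 831 in all other segments (49.9%, 46.5 to 53.4%). Among replicate 2 peaks, which were far more numerous, 22.8% (14.7 to 32.8%) were shared at the end of 9q and 15% (3.21 to 37.9%) in 9p. The share was 11.8% (4.44 to 23.9%) in proximal 22q, 9.68% (5.10 to 16.3%) in proximal 9q and 4.21% (1.16 to 10.4%) in distal 22q. In all other segments it was 9.83% (8.95 to 10.8%). Those differences were not tested.

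The 10 shared sites with the highest mean rank of their scores in the 2 lists were 5 at the end of 9q, 3 in proximal 9q and 2 in proximal 22q. The first was in 9q22.31 (chromosome 9, 95639872 to 95640927, hg19), with a score of 863.97 in replicate 1 and 642.45 in replicate 2. At the end of 9q, the site from 139525131 to 139526404 in 9q34.3 scored 211.14 and 741.66, and that from 136376650 to 136377935 in 9q34.2 scored 198.5 and 495.74. The site from 140047030 to 140048333 scored 135.8 and 657.15. The site from 139473808 to 139477081, was the only one of these 10 wider than 2 kb in both lists (3274 and 3530 bp) and scored 473.15 and 395.81. The site from 140843285 to 140844250 scored 103.84 and 636.02. In proximal 9q the remaining sites were in 9q33.3 (126108794 to 126110221, 196.8 and 473.28) and 9q32 (115818480 to 115819505, 247.02 and 331.32). In 22q11.21 the sites from 18879745 to 18881177 (140.27 and 379.98) and from 18717268 to 18718368 (127.91 and 355.09) came last. The midpoints of the 47 shared pairs were a median of 92 bp apart.

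**Figure D3:**
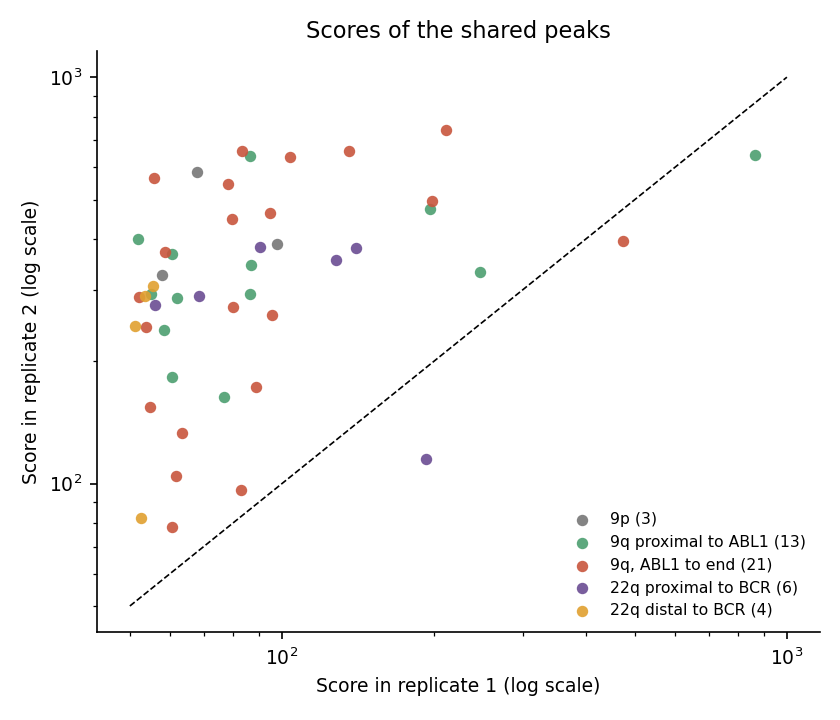
Scores of the 47 shared replicate 1 peaks (x axis) against the highest replicate 2 peak they overlapped (y axis), both on log scales and coloured by segment, with the line of equal scores dashed. Only 3 pairs lie below the line: 1 each in proximal 9q, at the end of 9q and in proximal 22q.

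The replicate 2 score was the higher in 44 of the 47 pairs, with a median ratio of 4.10 (lowest 0.60, highest 10.1). The median ratio was 3.51 at the end of 9q and 3.50 in proximal 22q, and 5.07 over the 4 pairs of distal 22q. Depth is unknown, so these ratios only describe the lists. Median scores over all replicate 2 peaks were 158.5 at the end of 9q, 153.1 in proximal 22q, 144.2 in distal 22q and 162.3 in proximal 9q, against 146.5 in all other segments. The 20 replicate 2 peaks of 9p had the highest median of the 5, at 228.8. In replicate 1 the 5 peaks of distal 22q had scores between 51.29 and 59.41, close to that list's lowest score of 50.03, while the 7 of proximal 22q ran from 55.28 to 192.72.

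Peaks on the fusion side of chromosome 22 were wide. In proximal 22q the median width of replicate 2 peaks was 1724 bp (quartiles 1292 and 2324 bp), against 946 bp in distal 22q (789 and 1154 bp) and 1060 bp in all segments off chromosomes 9 and 22. Of the 51 peaks, 21 were at least 2 kb wide (41.2%, 27.6 to 55.8%), against 4 of 95 in distal 22q (4.21%, 1.16 to 10.4%) and 328 of 4159 elsewhere (7.89%, 7.09 to 8.75%). Proximal 22q stood first of the 43 segments on both measures. The limit of 2 kb was chosen after the widths had been seen, and no test was made. With 1.5 kb the segment was again first (58.8%), and with 3 kb it ranked 3rd (9.80%, 5 peaks). In replicate 1 its 7 peaks were between 1101 and 2687 bp wide, with a median of 1587 bp against 928 bp elsewhere, second of 39 segments with at least 5 peaks. The first was 13q, with a median of 2490 bp over 10 peaks.

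The wide peaks of proximal 22q lay mostly within 4 Mb of BCR. Within 1 Mb of the BCR boundary on the fusion side, replicate 2 had 4 peaks, and all were wide: 3355 bp from 22638946, 6054 bp from 23022258, 2738 bp from 23284314 and 2224 bp from 23362609. Across the boundary, the 5 replicate 2 peaks of the next 1 Mb were 616 to 1283 bp wide. The nearest of these, from 23631598 to 23632880, had its midpoint 2.24 kb past the boundary. Because the boundary is a rounded position, the side of the fusion on which this peak lies is unknown. On the fusion side 19 of 34 replicate 2 peaks within 4 Mb of the boundary were wide (55.9%, 37.9 to 72.8%) and 2 of 17 farther off (11.8%, 1.46 to 36.4%). The distance of 4 Mb was chosen after the widths had been seen. With 1 Mb in its place, 17 of the 47 peaks farther off were wide (36.2%, 22.7 to 51.5%). Going away from BCR in steps of 1 Mb, median widths were 3047, 2106, 1868, 2098 and 1188 bp over 4, 6, 11, 13 and 11 peaks. On the other side 0 of 11 peaks within 4 Mb were wide. Stretches with only wide peaks also occurred elsewhere. On a fixed grid of 1 Mb windows over the genome, 529 windows held at least 3 replicate 2 peaks. In 5 of them all peaks were wide. On chromosome 22 there was 1, with peaks in 22q11.21 and 22q11.22. By the band of their first peak, the others were in 1p36.13, 1q21.1, 7q11.21 and 8q21.2.

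**Figure D4:**
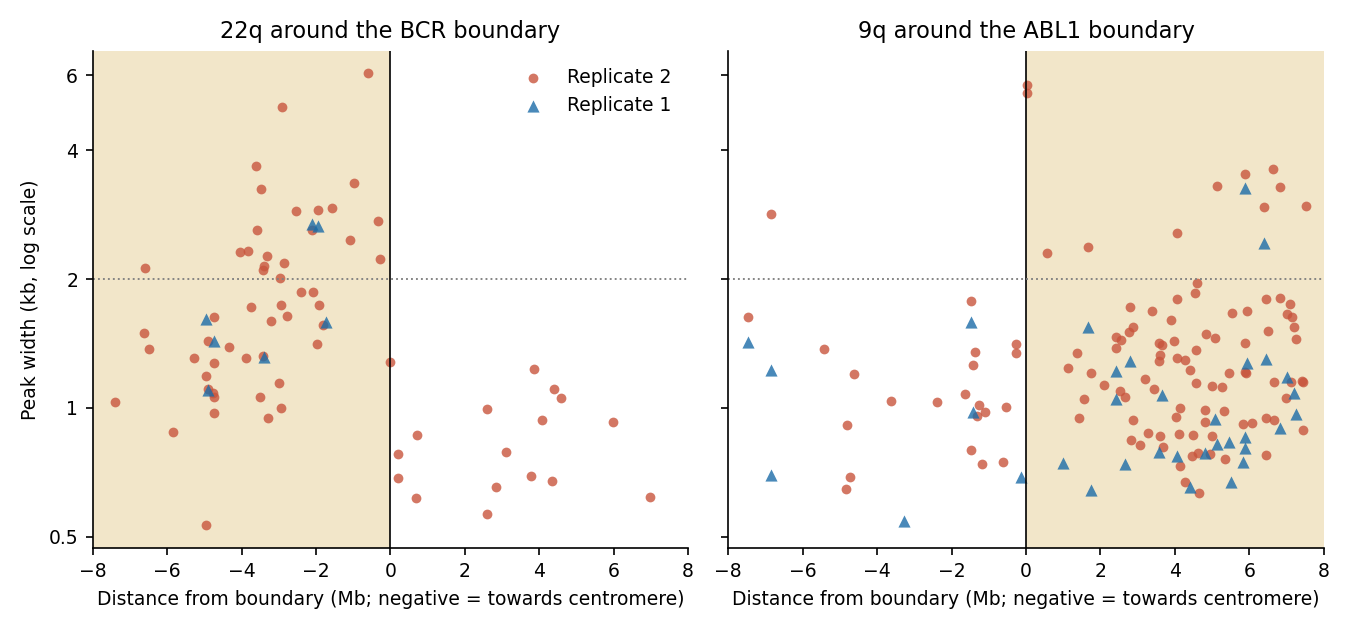
Width of each peak (kb, log scale) against its distance in Mb from the BCR boundary on 22q (left) and from the ABL1 boundary on 9q (right), for replicate 2 (circles) and replicate 1 (triangles); the fusion sides are shaded and the dotted line marks 2 kb. The 4 replicate 2 peaks nearest to BCR on its shaded side and the 3 nearest to ABL1 on its shaded side lie above 2 kb, and the peaks within 1 Mb on the unshaded sides lie below it.

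Next to ABL1 wide peaks lay within a shorter stretch. The nearest replicate 2 peaks on the fusion side, from 133607074 to 133612531 and from 133612616 to 133618301 in 9q34.12, were 5458 and 5686 bp wide, the widest 2 of the end of 9q, and they lay side by side. The next, from 134153346 to 134155642, was 2297 bp wide. These were the only replicate 2 peaks within 1 Mb of the boundary on that side, and the 4 within 1 Mb on the centromeric side were 747 to 1411 bp wide. Beyond 1 Mb, 8 of 89 peaks at the end of 9q were wide (8.99%, 3.96 to 16.9%), with a median of 1209 bp. The end of 9q as a whole had a median of 1220 bp, the 2nd highest of the 43 segments, and ranked 10th by its share of wide peaks. Replicate 1 had 0 peaks within 1 Mb of BCR on either side and 1 on each side of ABL1, of 691 bp (from 133442577, score 55.76) and 742 bp (from 134573383, score 68.07). It thus had no wide peak there.

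Most of the wide peaks near the fusion point had low scores for their width. The 3 next to ABL1 scored 112.66, 123.94 and 86.51, and the 4 next to BCR scored 505.74, 161.94, 151.53 and 70.29. Over all of proximal 22q the median score of wide peaks was 151.5 and that of narrower peaks 159.0. In all segments off chromosomes 9 and 22 wide peaks had a median score of 332.0 and narrower ones 139.2. Low scores of wide peaks were not particular to the fusion point. In the grid windows of 1p36.13, 1q21.1 and 8q21.2 where all peaks were wide, median scores were 124.6, 84.6 and 78.7. In that of 7q11.21 the median was 335.8. All 7 wide peaks next to the boundaries were unshared, and of the 21 in proximal 22q, 3 were shared, beside 82 of 328 wide peaks in all segments off chromosomes 9 and 22. Most replicate 2 peaks of any width were unshared. Among the shared ones were the sites from 21520018 to 21522704 (2687 bp, score 55.95 in replicate 1, and 275.02 in replicate 2) and from 21678660 to 21681321 (2662 bp, 90.55 and 382.02). These 2 were also the only replicate 1 peaks of proximal 22q at least 2 kb wide. Copy number, repeats and the mappability of 22q11, a region known for its low-copy repeats, were not measured, and their part in the widths was not tested.

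**Figure D5:**
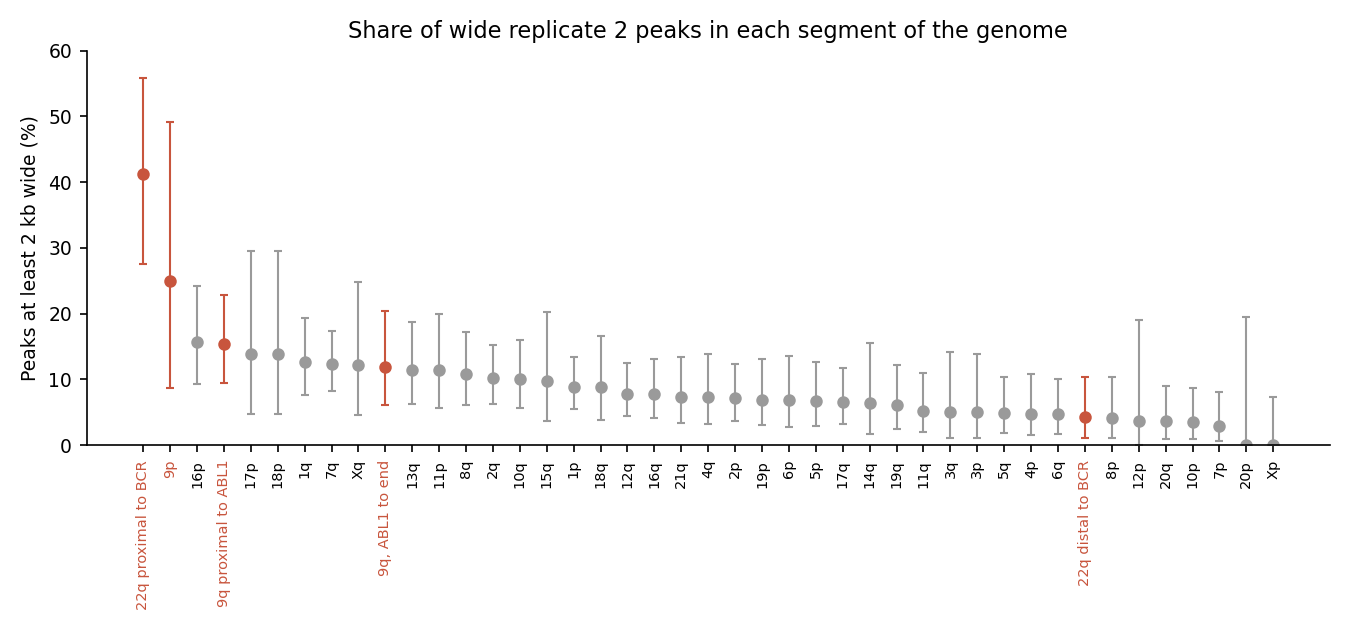
Share of replicate 2 peaks at least 2 kb wide in each of 43 segments, in falling order with 95% Clopper-Pearson intervals; the segments of chromosomes 9 and 22 are in red. Proximal 22q (41.2%) comes first and distal 22q (4.21%) lies far to the right, and 9p (25%) has a wide interval because it holds 20 peaks.

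Wide replicate 2 peaks also gathered near the centromere of chromosome 9, far from the fusion point. Band 9q13 had 13 peaks with a median width of 2108 bp, of which 8 were wide, and 9q21.11 had 11 with a median of 1737 bp. Among 261 bands with at least 5 replicate 2 peaks, 9q13 and 9q21.11 ranked 5th and 9th by median width. Centromere, variable and stalk bands and chromosome Y were left out of this ranking. Band 22q11.22, next to BCR, was first (2738 bp, 5 peaks, all wide), and 22q11.21 was 10th (1637 bp, 41 peaks). Bands of other chromosomes, 1q21.2, 1q21.1 and 13q31.3, were 2nd, 3rd and 4th. Band 22q11.23, which begins just before the boundary, was 255th (780 bp). Of the 8 wide peaks of 9q13, 3 had high scores: 1160.13 (from 66832547), 1164.23 (from 66970506) and 1122.42 (from 67319374). Replicate 1 had 0 peaks in 9q13. On the short-arm side, 3 of the 4 replicate 2 peaks of 9p11.2 and 1 of the 2 of 9p12 were wide. The whole of 9p held 5 wide replicate 2 peaks. Both sides of this centromere are known for large segmental duplications, and no mapping quality was available to set beside these peaks.

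The short arm of chromosome 9 held few peaks for its length in replicate 2. It held 8 replicate 1 peaks (0.56 times its share, not called, exact binomial test, adjusted p = 0.16) and 20 replicate 2 peaks, 0.28 times (0.17 to 0.43, exact test, adjusted p = 1.7e-12), the lowest density of the 43 segments in that list. In replicate 2 it was 0.29 times as dense as proximal 9q (0.17 to 0.47, exact conditional test, adjusted p = 1.7e-08), and in replicate 1 0.69 times (0.27 to 1.63, adjusted p = 0.44). Among the 910 highest-scoring replicate 2 peaks the arm stood at 0.57 times its share and was no longer called (exact test, adjusted p = 0.18). From position 8920308 to 33522897 there was no peak in either list. At 24.6 Mb this was the longest stretch without a peak outside centromere, variable and stalk bands on chromosomes 1 to 22 and X, ahead of one of 16.4 Mb on chromosome 3. The stretch spans the whole of 9p21.3, the band of CDKN2A. A band of its length without a peak was past the threshold only in the larger list (replicate 2 adjusted p = 0.0044, replicate 1 adjusted p = 1, exact test). This was not particular to 9p21.3. Bands 9p23 and 9p21.1 of the same stretch also held 0 peaks and were called lower in replicate 2 (exact test, adjusted p = 0.0080 for each). Of the 59 bands of chromosomes 9 and 22, 7 were called lower in replicate 2 and 0 in replicate 1. Besides the 9p bands named here, those called were the variable or stalk bands 22p13, 22p12, 22p11.2 and 9q12. The share of bands called lower over all chromosomes was not computed, so the calls in 9p are not shown to be unusual.

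The peaks that 9p did have differed between the lists. Replicate 1 had 5 peaks in 9p13.3 and 0 of them were shared, with scores from 50.28 to 72.11. The highest, from 35954719 to 35955542, lay 39.8 kb from the nearest replicate 2 peak. Of the 3 shared sites, 1 each was in 9p24.1, 9p13.2 and 9p11.2. The strongest replicate 2 peak of the arm, from 35912885 to 35914954, scored 822.77 and was 2070 bp wide.

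The strongest unshared peaks came from replicate 2. On chromosome 9 they were in 9q21.12 (72652792 to 72654098, score 1815.12), 9q34.3 (140221891 to 140225513, 1255.64) and 9q21.11 (69709706 to 69711817, 1197.38). The first lay 2916 kb from any replicate 1 peak. On chromosome 22 they were in 22q13.1 (39039883 to 39041076, 1123.31), 22q13.33 (50775237 to 50779389, 774.68) and 22q11.21 (19896544 to 19898267, 666.28). In replicate 1 the highest unshared scores besides that in 9p13.3 were 68.07 (from 134573383 in 9q34.13) and 61.12 (from 33522898 in 9p13.3). On chromosome 22 only 2 replicate 1 peaks were unshared, 59.41 in 22q13.33 (from 51238616) and 55.28 in 22q11.21 (from 21903801). All unshared replicate 1 scores named here but 72.11 were below the lowest deposited replicate 2 score of 70.02. The lists do not share one score scale, so this does not place these sites below the replicate 2 threshold. In the 47 shared pairs the replicate 2 score was a median of 4.10 times that of replicate 1, and it was the lower in 3 pairs. Where a list lacks a peak, the site fell short of its threshold, which does not show that ASH1 was absent.

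In the middle of 9q the peaks gathered in 9q22. Band 9q22.31 held 5 and 15 peaks, 6.33 and 3.74 times its share (exact binomial test, adjusted p = 0.035 and 0.00031), and 3 of its 5 replicate 1 peaks were shared. Its neighbours 9q22.1 and 9q22.2 held 8 and 17 replicate 2 peaks (3.85 and 5.45 times, adjusted p = 0.011 and 8.3e-07, exact test) and 0 replicate 1 peaks. On distal 22q the outer bands 22q13.31, 22q13.32 and 22q13.33 held 28, 9 and 18 replicate 2 peaks (4.49, 6.06 and 6.37 times, all called) and 0, 0 and 1 replicate 1 peaks.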

How the data were processed

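ASH1 ChIP-seq of K562 gave 1 peak list for each of the 2 samples. BWA and MACS are named, without versions, in the list of tools per the submitters' processing notes; settings and any control library are not stated there. Each peak's deposited score comes from the authors and was read, from its form, as 10 times the negative log10 of the p-value. Coordinates were taken as hg19: 41 replicate 2 peaks of chromosome 9 end beyond the GRCh38 chromosome and 0 beyond that of hg19. Positions are 1-based.

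Peaks were assigned by midpoint to 43 segments (arms of chromosomes 1 to 22 and X without 5 acrocentric short arms, with 9 and 22 cut as described) and to 862 hg19 bands (circlize 0.4.16), and counts were compared with full length by exact two-sided binomial tests, within pairs of segments by exact conditional tests (6 in all), and between lists by Fisher's exact test. Benjamini-Hochberg adjustment ran over all segments, bands or pairs, with a call below 0.05. Intervals are 95% and cover counting error only. The rule for named peaks was the 10 highest-ranked shared sites, the 3 highest unshared peaks per list and chromosome, the peaks nearest the boundaries, and bands called in both lists with 9p21.3. Other named peaks and bands, the 2 kb limit and the distances of 1 and 4 Mb from the boundaries were chosen after values were seen. The same holds for the grid of 1 Mb windows, the gene counts and the peak-free stretches. Segments and lists were chosen with earlier results of these data known. Python 3.11.15, scipy 1.17.1, numpy 2.4.6 and pandas 2.3.3 were used.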

Additional observations from a re-analysis of the deposited data

How the results depend on the processing

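Both fusion sides were called higher in both lists, 2 of the 5 segments, under each of the 7 alternatives run on score, list length, merging, band removal and boundaries. A call in a single list sufficed without replicate 1 (4 segments) or without replicate 2 (2 segments). With lists of equal length, the replicate 2 calls were lost for 9p (0.566 times its share), for distal 22q (1.21) and for 9p over proximal 9q (0.561). The difference between the lists in distal 22q was no longer called either, though the ratio was 0.492. With scores of at least 70 in both lists, 100% of replicate 1 peaks were shared in proximal 9q, at the end of 9q and in proximal 22q, and 50% in 9p. Of replicate 2 peaks, 14.1% were then shared at the end of 9q and 0% in distal 22q. At this limit 341 replicate 1 peaks remained over all chromosomes. Their shared percentage was not computed, so 100% is not shown to be particular to these segments. The replicate 1 ratio of proximal to distal 22q has no value there, since distal 22q then held no replicate 1 peak. Bands called higher in both lists numbered 2 with scores of at least 70, and 12 without replicate 1 and 4 without replicate 2. The share of wide replicate 2 peaks, whose alternatives were all added after the data had been seen, was 30.4% at the end of 9q and 58.8% in proximal 22q at 1.5 kb, and 9.80% in proximal 22q at 3 kb. No called result changed direction. Among values that were not called, the replicate 2 fold of proximal 9q went from 0.94 to 1.01 with lists of equal length and 1.17 with centromere, variable and stalk bands left out. The ratio of list shares, replicate 1 over replicate 2, went from 2.02 to 0.98 for 9p with lists of equal length and from 0.69 to 1.06 for proximal 22q with scores of at least 70. No paired analysis was possible because the 2 samples belong to the same group. Read depth is unknown for both lists, so a lower peak count cannot be told apart from a stricter threshold or a shallower library, and 7 or fewer replicate 1 peaks in each part of 22q leave wide intervals.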
